A study of Mus musculus with 2 samples.

Results

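The genes examined here were 31 genes of glycolysis and of the response to low oxygen, measured in single cells of mouse fracture callus, the cartilage-rich repair tissue that bridges a broken bone. They were taken by symbol from the gene list of the count matrices, where they were 31 of 32285 genes, and comprised 2 glucose carriers, 14 glycolytic enzymes, 3 genes of lactate production and transport, 3 regulators of flux, 3 oxygen-sensing genes and 6 further targets of the hypoxia response. The rule for membership used no measured level, although the members were chosen with earlier results of these data known. Aldoa filled 2 rows of the matrix, of which ENSMUSG00000030695 held 59476 UMIs in one library and 18065 in the other while ENSMUSG00000114515 held 0 and 2, and the rows were added.

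The study examined how cartilage is replaced by bone during fracture healing, and the scRNA-seq data used here came from wild-type C57BL/6J mice, male and 12 weeks old per the methods, with a femoral fracture and no other treatment. Calluses of 5 mice at 10 days and of 5 mice at 20 days post-fracture (dpf) were digested to single cells. The deposited data were 2 libraries named MGJ and MGJ2, and the labels did not say which was collected at which day. Mice could not be told apart within a library, so each library was described on its own, values of both were given side by side, and no difference between them was tested or read as an effect of time.

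Glycolysis splits glucose into pyruvate and yields energy without oxygen, and lactate dehydrogenase then turns pyruvate into lactate, which leaves the cell through monocarboxylate carriers. When oxygen is scarce, the prolyl hydroxylases of the Egln family no longer mark Hif1a protein for destruction, and the protein binds short sites near glucose carriers, glycolytic enzymes and other genes and raises their transcription. Cartilage lacks blood vessels, and chondrocytes of the growth plate and of the callus are known to rely on glycolysis and on Hif1a. Because oxygen acts on the Hif1a protein, the level of its RNA is not a readout of its activity.

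The sites bound by Hif1a contain the letters ACGTG or GCGTG, and 4 promoters are shown here. Bnip3 and Tpi1 stood high and Pfkfb4 low in the chondrocyte-like cells described below, and Adm is followed across their Col10a1 ranges. Promoters of RefSeq genes (mouse build GRCm38.p6) were matched for 28 of the 31 genes and not for Slc2a3, Ero1l and Ndrg1. Searched on both strands in the 250 bases before the transcription start, either motif was found in 34 of 41 promoters of these genes (82.9%) and in 12679 of 32851 promoters of all genes (38.6%). By gene, 26 of 28 members (92.9%) and 11226 of 27025 genes (41.5%) had at least 1 match. Tpi1 and Gpi1 had none in this window. A match describes the letters only, and each sequence is printed 5′ to 3′ on the strand of its gene with matches in capitals, where CACGT and CACGC are the motifs read on the opposite strand and overlapping matches run together.
Bnip3 (chr7:138909507-138909756, minus strand): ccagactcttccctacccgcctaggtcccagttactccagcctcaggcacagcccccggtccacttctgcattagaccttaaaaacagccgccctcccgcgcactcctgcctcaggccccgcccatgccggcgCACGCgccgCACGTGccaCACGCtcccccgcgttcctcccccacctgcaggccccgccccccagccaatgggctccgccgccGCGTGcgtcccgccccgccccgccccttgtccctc
Adm (chr7:110627407-110627656, plus strand): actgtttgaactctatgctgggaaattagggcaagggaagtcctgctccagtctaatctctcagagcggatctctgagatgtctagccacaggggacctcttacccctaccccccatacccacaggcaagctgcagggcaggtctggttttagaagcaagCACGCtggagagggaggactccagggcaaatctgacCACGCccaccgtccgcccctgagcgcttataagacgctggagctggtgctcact
Pfkfb4 (chr9:108991652-108991901, plus strand): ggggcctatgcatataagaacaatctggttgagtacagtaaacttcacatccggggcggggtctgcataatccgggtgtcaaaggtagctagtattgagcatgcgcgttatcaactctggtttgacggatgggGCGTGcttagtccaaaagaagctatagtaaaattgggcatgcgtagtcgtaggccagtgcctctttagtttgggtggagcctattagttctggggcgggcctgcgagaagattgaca
Tpi1 (chr6:124814159-124814408, minus strand): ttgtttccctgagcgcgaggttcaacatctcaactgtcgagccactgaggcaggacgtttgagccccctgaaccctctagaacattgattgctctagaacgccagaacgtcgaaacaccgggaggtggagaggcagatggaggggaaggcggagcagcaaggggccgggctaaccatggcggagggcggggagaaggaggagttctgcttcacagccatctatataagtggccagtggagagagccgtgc
The Bnip3 promoter held 5 matches, the Adm promoter 2, the Pfkfb4 promoter 1 and the Tpi1 promoter 0.

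MGJ held 14295 barcodes and 135304426 UMIs (unique molecular identifiers, 1 per captured RNA molecule), and MGJ2 held 8009 barcodes and 61130834 UMIs. Barcodes with at least 200 genes and at most 20% mitochondrial UMIs were kept, doublet calls were removed, and 12810 and 7440 cells remained, with median depths of 5419.5 and 4838.5 UMIs. Cells were clustered without the 31 genes, and a class was called "X-like" only from markers. All 16 chondrocyte markers were above the level of the other cells in both libraries. In MGJ, 2450 cells (19.1%) stayed unnamed, most of them in a Ccl3- and Ccl4-led cluster of 2188 cells with a median of 1771 UMIs, whereas 46 cells (0.618%) stayed unnamed in MGJ2. The monocyte-like clusters, led by Adgre4 or by Arg1 and Tarm1, the Sbsn- and Chil1-led and the Pbk- and Depdc1a-led chondrocyte-like clusters and the Ifit1- and Rsad2-led neutrophil-like cluster had none of their own markers among their 10 leading genes. Col2a1, a cartilage collagen, reached 0.7 to 13.4% of its chondrocyte-like level in the other classes of MGJ, and what free RNA adds to the levels below was not tested gene by gene. The libraries shared 19 barcode sequences.

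ScRNA-seq data revealed that the summed level of the 31 genes was not highest in chondrocyte-like cells in either library. Levels are given per 1000000 UMIs of the class (CPM), with 95% Poisson intervals that, like all intervals here, cover counting error only. In MGJ, monocyte-like cells stood highest at 8222 CPM (1284 cells, interval 8161 to 8283), followed by macrophage-like cells at 7849 CPM (875 cells, interval 7791 to 7908) and osteoclast-like cells at 7109 CPM (95 cells, interval 6996 to 7223). Chondrocyte-like cells came next at 6884 CPM (2778 cells, interval 6862 to 6906), above myeloid progenitor-like cells at 6038 CPM (155 cells, interval 5945 to 6132), neutrophil-like cells at 5165 CPM (2798 cells, interval 5117 to 5212) and fibroblast-like cells at 4965 CPM (1202 cells, interval 4935 to 4995). The intervals of these classes did not overlap. B-like cells stood lowest, at 1953 CPM.

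Osteoclast-like cells led in MGJ2 with 6205 CPM (56 cells, interval 6097 to 6315), above myeloid progenitor-like cells at 5565 CPM (214 cells, interval 5508 to 5622) and neutrophil-like cells at 5092 CPM (2434 cells, interval 5049.9 to 5135). Chondrocyte-like cells there had 4468 CPM (139 cells, interval 4403 to 4535), and B-like cells were again lowest at 1569 CPM. Monocyte-like cells had 4002 CPM in this library, but a different cluster made up most of the class. In MGJ, 1215 of the 1284 monocyte-like cells were Arg1- and Tarm1-led with 8378 CPM, and the 69 Adgre4-led cells had 4176 CPM. In MGJ2, 1535 were Adgre4-led with 3986 CPM and 57 Arg1-led with 4492 CPM. Among single chondrocyte-like cells the summed level spread widely, with a 10th percentile, median and 90th percentile of 2493, 5266 and 13232 CPM in MGJ and 1791, 3361 and 8507 CPM in MGJ2. Gapdh alone was a large share of the sum, and without it chondrocyte-like cells had 5153 and 3638 CPM.

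**Figure D1:**
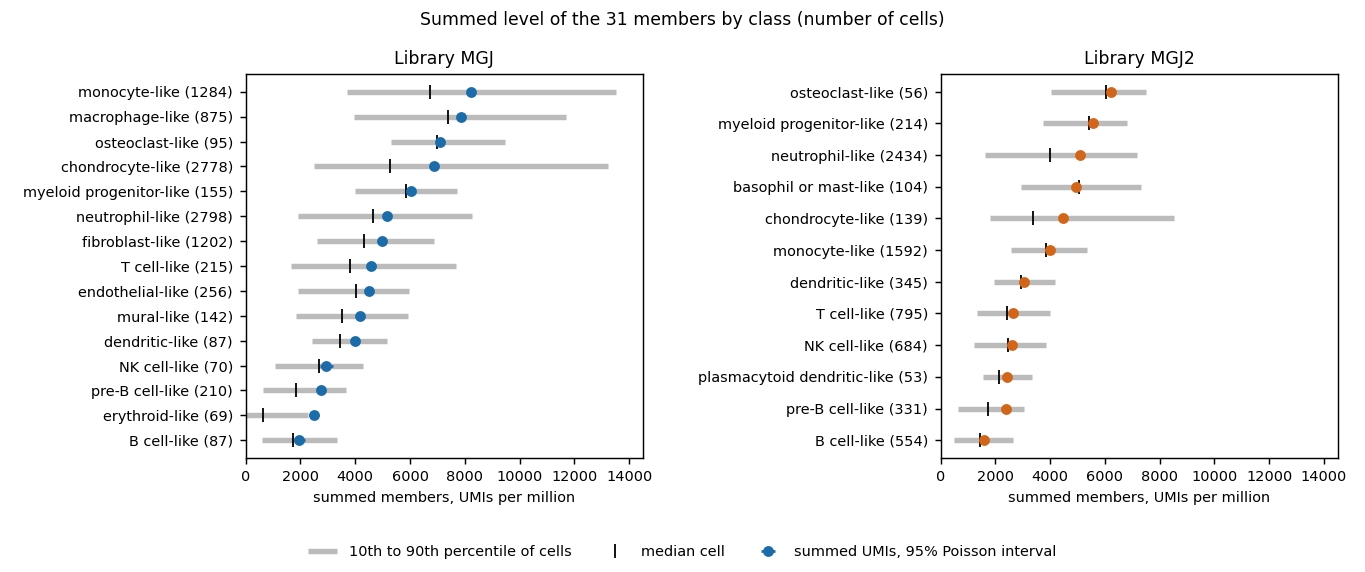
Summed level of the 31 genes in CPM by marker-defined class in each library, with the pooled class level and its Poisson interval, the median of cells, and a line from the 10th to the 90th percentile of cells. Chondrocyte-like cells stood at 6884 and 4468 CPM, below monocyte-, macrophage- and osteoclast-like cells in MGJ and below osteoclast-, myeloid progenitor-, neutrophil- and basophil- or mast-like cells in MGJ2.

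To ask which of the genes set chondrocyte-like cells apart, their level was compared with that of all other kept cells of the same library. The summed level was 6884 against 5895 CPM in MGJ, or 1.17 (interval 1.16 to 1.17) times as high, and 4468 against 4061 CPM in MGJ2, or 1.10 (interval 1.08 to 1.12) times. Without an Espn- and Cdsn-led sub-cluster of chondrocyte-like cells, described below, the summed ratio in MGJ was 1.05. A gene was counted as past the fold when its ratio was at least 1.5 or at most the inverse of 1.5, among genes with at least 50 UMIs in both sides together. In MGJ, 10 of the 31 members with enough UMIs stood at or above the upper fold (background 22.9% of all genes counted) and 10 at or below the lower fold (background 34.8%), 20 in all against a background of 57.7%. In MGJ2, 14 of the 31 members with enough UMIs stood at or above the upper fold (background 26.3% of all genes counted) and 9 at or below the lower fold (background 43.2%), 23 in all against a background of 69.5%. The share on the low side in MGJ was near the background, and the totals of both libraries were not far above it. The median ratio of the counted members was 1.10 in MGJ and 1.17 in MGJ2, beside 0.896 and 0.786 over all genes counted. In both libraries alike, 8 genes stood past the upper fold and 8 past the lower. Genes past the same fold in both libraries were not counted over all genes, here or in the comparisons below. Such counts therefore have no background and are not read as a trait of the 31 genes. Of 7 genes induced by tissue dissociation, 2 stood past each fold in MGJ and 5 past the upper fold in MGJ2, with summed levels of 1523 against 1332 CPM and 2327 against 653 CPM, and their part was not tested. Cells within a library are not replicates, and there is no test of these differences.

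Of the glucose carriers, Slc2a1, the basal carrier of most tissues, had 91.04 against 82.5 CPM in MGJ, ratio 1.10 (interval 1.06 to 1.15), and 108 against 41.6 CPM in MGJ2, ratio 2.60 (interval 2.34 to 2.88). Slc2a3, a carrier of high affinity, was highest in neutrophil-like cells of both libraries and in chondrocyte-like against other cells stood at 2.35 against 26.96 CPM in MGJ, ratio 0.0873 (interval 0.0725 to 0.104), and 3.29 against 48.4 CPM in MGJ2, ratio 0.0679 (interval 0.0361 to 0.116). In neutrophil-like cells Slc2a3 supplied 67.5% (interval 65.4 to 69.6%) of the UMIs of these carriers in MGJ and 78.5% (interval 76.9 to 79.97%) in MGJ2. The same share in chondrocyte-like cells was 2.52% (interval 2.11 to 2.99%) and 2.95% (interval 1.58 to 4.99%). Of these carriers, Slc2a1 thus held most UMIs in chondrocyte-like cells and Slc2a3 in neutrophil-like cells of both libraries. Other glucose carriers are outside this share, and RNA counts do not show which carrier is in use.

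Hexokinases trap glucose in the cell as its phosphate. Hk2, the isoform induced by hypoxia and growth signals, had 217 against 113 CPM in MGJ, ratio 1.91 (interval 1.86 to 1.97), and 277 against 48.6 CPM in MGJ2, ratio 5.70 (interval 5.30 to 6.12). Hk2 was highest in chondrocyte-like cells of all classes in both libraries, 1.11 (interval 1.07 to 1.15) times the fibroblast-like level in MGJ and 1.56 (interval 1.38 to 1.76) times the osteoclast-like level in MGJ2. It supplied 87.4% (interval 86.8 to 87.9%) and 85.5% (interval 83.4 to 87.4%) of the summed Hk1 and Hk2 UMIs there, against 38.6% (interval 33.9 to 43.4%) and 47.2% (interval 43.1 to 51.3%) in neutrophil-like cells. Hk1, the housekeeping isoform, was at 31.3 and 47.02 CPM in chondrocyte-like cells and reached 67.6 CPM in the endothelial-like cells of MGJ, where Hk2 supplied 17.2%. Gpi1, which converts glucose phosphate to fructose phosphate, was low in chondrocyte-like cells at 117 against 175 CPM in MGJ, ratio 0.667 (interval 0.647 to 0.687), and 121 against 277 CPM in MGJ2, ratio 0.436 (interval 0.397 to 0.477). Its highest level was in myeloid progenitor-like cells, 421 and 587 CPM.

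Phosphofructokinase commits sugar to glycolysis and is built from liver (Pfkl), platelet (Pfkp) and muscle (Pfkm) subunits. Pfkl had 41.04 against 21.7 CPM in MGJ, ratio 1.89 (interval 1.77 to 2.02), and 47.02 against 17.8 CPM in MGJ2, ratio 2.65 (interval 2.25 to 3.10). Pfkm had 9.03 against 2.67 CPM in MGJ, ratio 3.39 (interval 2.85 to 4.03), and 8.85 against 1.16 CPM in MGJ2, ratio 7.66 (interval 4.90 to 11.8). Chondrocyte-like cells led for both subunits in each library, although Pfkm had few UMIs and its lead over the next class, 1.66 (interval 0.756 to 4.53) times in MGJ and 1.82 (interval 0.652 to 7.06) times in MGJ2, was within counting error. Pfkp, the most abundant of the subunits, made up 53.5% and 51.1% of phosphofructokinase UMIs in chondrocyte-like cells and 72.7% and 82.1% in all other cells. Its level in chondrocyte-like cells was 57.7 and 58.4 CPM, and the dendritic-like cells had 149 and 162 CPM.

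Aldolase splits the sugar into its pair of triose phosphates, with Aldoa as the common and Aldoc as a rarer isoform. Aldoa had 430.4 CPM (interval 425 to 436) in chondrocyte-like cells of MGJ and 302 CPM (interval 285 to 319) in those of MGJ2, and was highest in osteoclast-like cells at 1023 and 965 CPM. Aldoc had 30.95 against 4.49 CPM in MGJ, ratio 6.90 (interval 6.11 to 7.82), and 12.4 against 1.96 CPM in MGJ2, ratio 6.31 (interval 4.39 to 8.95). Aldoc supplied 6.71% and 3.95% of aldolase UMIs in chondrocyte-like cells and 0.850% and 0.601% in all other cells, so Aldoa remained the main isoform by count. Tpi1, which interconverts the triose phosphates and is encoded by the promoter without a match printed above, had 379.8 against 187 CPM in MGJ, ratio 2.03 (interval 1.99 to 2.08), and 192 against 69.4 CPM in MGJ2, ratio 2.76 (interval 2.55 to 2.99). Its chondrocyte-like level was the highest of all classes in MGJ and second to osteoclast-like cells in MGJ2.

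The enzymes of the lower pathway were abundant in many classes. Gapdh, which oxidises triose phosphate, had 1730.4 and 830.4 CPM in chondrocyte-like cells, and ranged over the named classes from 503 CPM in B-like to 2129.6 CPM in monocyte-like cells of MGJ and from 293 CPM in B-like to 1705 CPM in osteoclast-like cells of MGJ2. Pgk1, the first enzyme of the pathway to make ATP, had 576 CPM in chondrocyte-like and 584 CPM in monocyte-like cells of MGJ, levels that did not differ beyond counting error. In MGJ2 it had 299 CPM in chondrocyte-like cells. Pgam1, a mutase, stood at 403 and 256 CPM and Eno1, the main enolase, at 345 and 184 CPM in chondrocyte-like cells. Pkm, pyruvate kinase, had 679 against 699 CPM in MGJ and 441 against 430.1 CPM in MGJ2 for chondrocyte-like against other cells. Several of these genes, Gapdh among them, have near-identical copies in the genome, and how their reads were assigned is not given in the sources used here.

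Ldha, the lactate dehydrogenase subunit that favours lactate, had 671 against 481 CPM in MGJ and 425 against 381 CPM in MGJ2 for chondrocyte-like against other cells. Slc16a3, the lactate exporter of glycolytic cells, was low in chondrocyte-like cells at 66.7 against 118 CPM in MGJ, ratio 0.565 (interval 0.543 to 0.587), and 42.7 against 169 CPM in MGJ2, ratio 0.253 (interval 0.216 to 0.295). Its highest levels were in monocyte-like cells of MGJ (255 CPM) and neutrophil-like cells of MGJ2 (328 CPM). Slc16a1, the more general carrier, was at 20.00 and 25.3 CPM in chondrocyte-like cells and stood out in erythroid-like cells of MGJ (251 CPM) and pre-B-like cells of MGJ2 (193 CPM). Slc16a3 supplied 98.1% and 97.8% of the UMIs of both carriers in neutrophil-like cells, 76.9% and 62.8% in chondrocyte-like cells and 19.3% and 2.08% in pre-B-like cells.

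Pfkfb3 and Pfkfb4 make the activator of phosphofructokinase, and Pdk1 holds pyruvate out of mitochondria. Pfkfb3 had 29.6 against 47.9 CPM in MGJ, ratio 0.618 (interval 0.582 to 0.656), and 30.3 against 71.7 CPM in MGJ2, ratio 0.423 (interval 0.350 to 0.507). Pfkfb4, whose promoter is printed above, had 4.78 against 10.1 CPM in MGJ, ratio 0.475 (interval 0.411 to 0.548), and 5.31 against 16.6 CPM in MGJ2, ratio 0.320 (interval 0.197 to 0.492). Both were low in chondrocyte-like cells in both libraries. Pfkfb3 was highest in endothelial-like cells of MGJ (162 CPM) and neutrophil-like cells of MGJ2 (118 CPM), and Pfkfb4 was highest in neutrophil-like cells of both (23.9 and 52.5 CPM). Osteoclast-like cells had the reverse makeup, with Pfkfb4 supplying 81.4% (interval 66.6 to 91.6%) and 90.5% (interval 77.4 to 97.3%) of the 43 and 42 UMIs of both genes. Pfkfb4 was also the larger part by count in 2 neutrophil-like clusters. It supplied 61.5 and 68.8% in the Ltf-led and 65.5 and 74.7% in the Camp-led cluster. Pdk1 had 20.5 against 10.8 CPM in MGJ, ratio 1.90 (interval 1.73 to 2.09), and 21.7 against 7.03 CPM in MGJ2, ratio 3.09 (interval 2.42 to 3.92).

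Among the oxygen-sensing genes, Hif1a, the oxygen-labile subunit of the hypoxia factor, had 492 against 357 CPM in MGJ, ratio 1.38 (interval 1.35 to 1.40), and 438 against 285 CPM in MGJ2, ratio 1.54 (interval 1.46 to 1.61). Chondrocyte- and monocyte-like cells shared the top of the order for Hif1a, at 492 and 490.2 CPM in MGJ and 438 and 469.7 CPM in MGJ2, and osteoclast-like cells were at the bottom with 63.6 and 44.4 CPM. Egln1, the main hydroxylase that limits Hif1a, had 89.8 against 41.8 CPM in MGJ, ratio 2.15 (interval 2.05 to 2.25), and 73.3 against 32.04 CPM in MGJ2, ratio 2.29 (interval 2.01 to 2.59). Egln3, a hydroxylase that is itself induced by hypoxia, had 4.85 against 8.12 CPM in MGJ, ratio 0.597 (interval 0.514 to 0.692), and 2.27 against 8.14 CPM in MGJ2, ratio 0.279 (interval 0.127 to 0.535). Egln3 supplied 5.13% and 3.01% of the UMIs of both hydroxylases in chondrocyte-like cells and 53.5% and 20.7% in neutrophil-like cells.

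The further hypoxia targets did not move together. Bnip3, which promotes removal of mitochondria and whose promoter held the most matches of those printed, had 165 against 52.9 CPM in MGJ, ratio 3.12 (interval 3.005 to 3.25), and 111 against 6.57 CPM in MGJ2, ratio 16.9 (interval 14.6 to 19.5). No class exceeded the chondrocyte-like level in either library, which was 2.12 (interval 1.96 to 2.29) times the macrophage-like level in MGJ and 5.84 (interval 4.37 to 7.97) times the pre-B-like level in MGJ2. Ero1l, an oxidase of protein folding in the endoplasmic reticulum, had 73.6 against 89.1 CPM in MGJ and 37.4 against 113 CPM in MGJ2, and reached 731 CPM in the basophil- or mast-like cells of MGJ2. Ddit4, an inhibitor of mTOR signalling, had 25.5 against 50.9 CPM and 20.2 against 82.7 CPM. Ndrg1, a stress-responsive gene, had 66.2 against 186 CPM and 36.1 against 89.5 CPM. Both stood past the lower fold in both libraries, and Ndrg1 was highest in fibroblast-like cells of MGJ at 372 CPM. Adm, a vasoactive peptide, had 10.9 against 8.17 CPM in MGJ and 12.9 against 1.06 CPM in MGJ2, where coarser clustering, a 10% mitochondrial limit and a 500-gene minimum turned its ratio to 0.300, 0.666 and 0.653. Ankrd37 was past the lower fold in MGJ at 2.24 against 9.49 CPM and past the upper fold in MGJ2 at 1.77 against 0.886 CPM, levels of few UMIs.

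**Figure D2:**
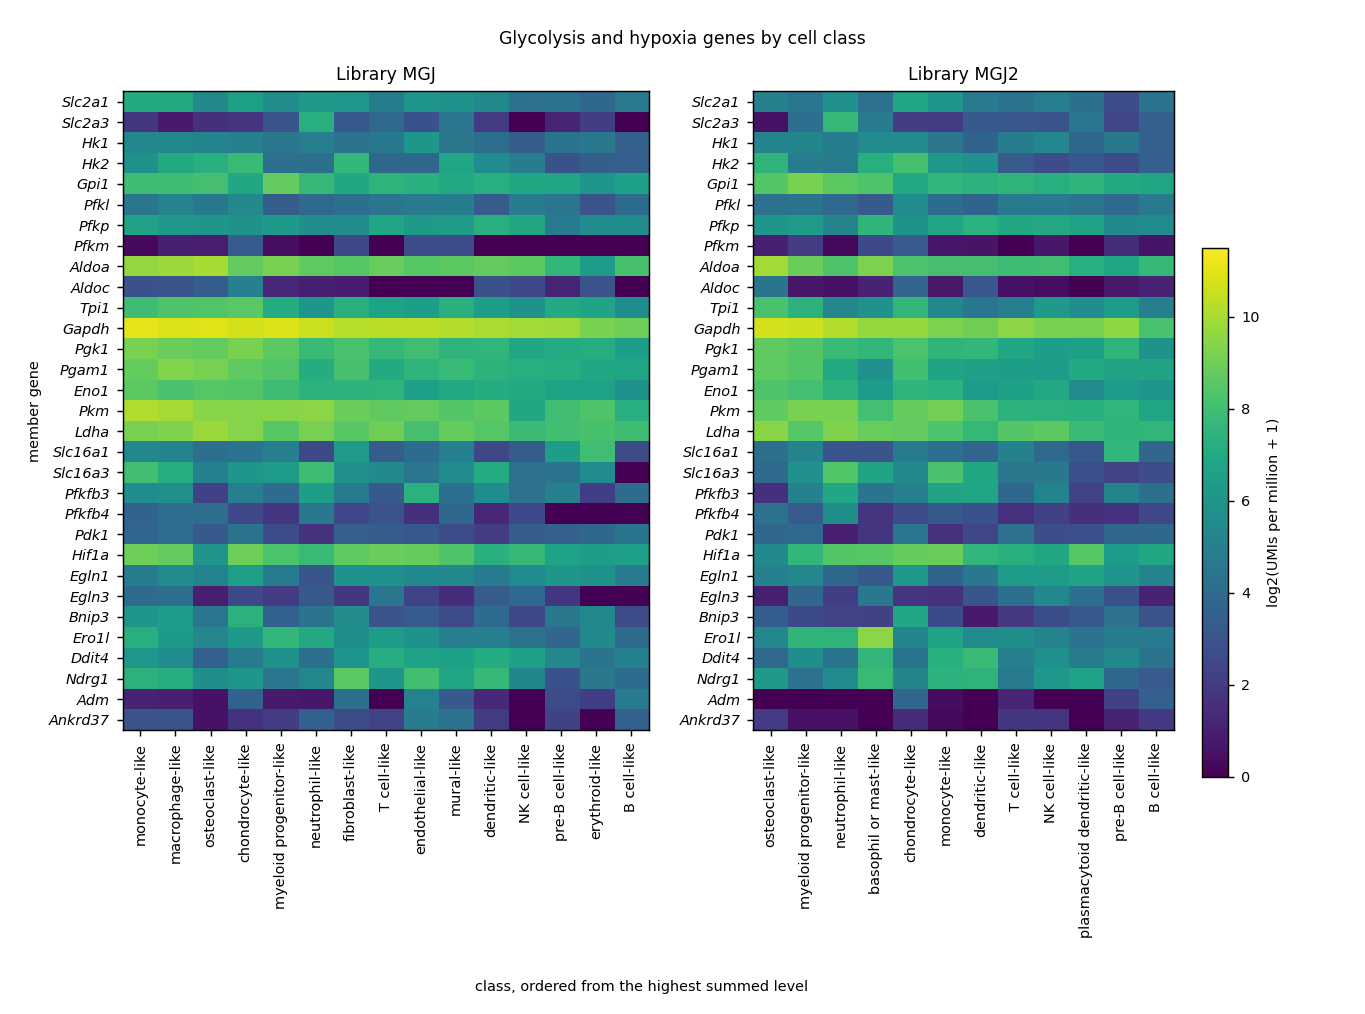
Level of each of the 31 genes as log2 of CPM plus 1, by marker-defined class and library. Bnip3 and Hk2 were highest in chondrocyte-like cells (165 and 217 CPM in MGJ), Slc2a3 in neutrophil-like cells (151 CPM), and Hif1a was lowest in osteoclast-like cells (63.6 CPM).

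Counted by class, chondrocyte-like cells had the highest level for 8 of the 31 genes in each library. In MGJ these were Hk2, Pfkl, Pfkm, Aldoc, Tpi1, Hif1a, Egln1 and Bnip3, and in MGJ2 they were Slc2a1, Hk1, Hk2, Pfkl, Pfkm, Pdk1, Bnip3 and Adm. Osteoclast-like cells led for 2 genes in MGJ and for 9 in MGJ2, among them Aldoa, Tpi1, Gapdh, Pgk1, Pgam1, Eno1 and Ldha, and monocyte-like cells led for 6 in MGJ, among them Gapdh, Pgk1, Eno1 and Pkm. Neutrophil-like cells led for Slc2a3 and Pfkfb4 in both libraries. Leading classes were not counted over all genes, so these counts have no background and are not read as a trait of the 31 genes. Some leads were within counting error. Hk1 in MGJ2 had 47.02 CPM (interval 40.5 to 54.3) in chondrocyte-like and 46.1 CPM (interval 32.6 to 63.3) in basophil- or mast-like cells.

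Next, the genes were followed across chondrocyte hypertrophy, the maturation step before cartilage is replaced, by grading each chondrocyte-like cell by its own Col10a1, the collagen of hypertrophic chondrocytes: low below 1000 CPM, moderate to below 10000 CPM and high from 10000 CPM. Of the stage markers not used for grading, Ihh, a hedgehog ligand, had 21.6, 99.6 and 237 CPM at low, moderate and high Col10a1 in MGJ and 35.8, 122 and 518 CPM in MGJ2, and Spp1 and Mef2c were likewise higher at each stage in both. Ihh is among the 10 leading genes of the Col10a1-led cluster and so is not independent of it. Other such markers did not follow the stages throughout. Mmp13 had 492, 282 and 1338 CPM in MGJ, Panx3 477, 722 and 242 CPM in MGJ2, and Pth1r was lower at high than at moderate Col10a1 in both. The summed level of the 31 genes was 6789 CPM (1938 cells, interval 6762 to 6815) at low, 8443 CPM (354 cells, interval 8379 to 8508) at moderate and 6009 CPM (486 cells, interval 5961 to 6058) at high Col10a1 in MGJ. In MGJ2 it was 4980.5 CPM (64 cells, interval 4873 to 5089), 4595 CPM (25 cells, interval 4439 to 4755) and 3884 CPM (50 cells, interval 3788 to 3982). Cells within 1.2 times of a limit were 2.02% at either limit in MGJ and 2.88 and 3.60% in MGJ2. The level was thus lowest at high Col10a1 in both libraries, and highest at moderate Col10a1 in MGJ but at low Col10a1 in MGJ2, where the moderate stage held 25 cells. Median mitochondrial shares moved with the stage and were 3.90, 2.96 and 2.68% in MGJ and 3.63, 2.90 and 2.57% in MGJ2, and their part in the result was not tested. Within each of 4 ranges of depth in MGJ the moderate stage again stood highest, for example 6931, 9750.1 and 6614 CPM in cells with 10000 to 20000 UMIs. The stages of MGJ included the Espn- and Cdsn-led sub-cluster described below, and without it they had 6209, 6934 and 5644 CPM.

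High- over low-Col10a1 cells gave a ratio of 0.885 (interval 0.877 to 0.893) in MGJ and 0.780 (interval 0.754 to 0.806) in MGJ2. In MGJ, 3 of the 31 members with enough UMIs stood at or above the upper fold (background 15.9% of all genes counted) and 9 at or below the lower fold (background 22.3%), 12 in all against a background of 38.2%. In MGJ2, 1 of the 24 members with enough UMIs stood at or above the upper fold (background 15.0% of all genes counted) and 9 at or below the lower fold (background 20.5%), 10 in all against a background of 35.4%. The total of MGJ was near the background, and that of MGJ2 not far above it. The 10 members past the fold in MGJ2 became 5 with the sub-clusters set aside kept, 5 at a minimum of 200 UMIs and 3 at a fold of 2. Counted members had a median ratio of 0.907 in MGJ and 0.757 in MGJ2, and all genes counted had 0.944 and 0.962. The direction in MGJ changed with the settings that form the classes. Coarser clustering, a 10% mitochondrial limit and a 500-gene minimum left a cluster with Dmp1 and Col10a1 among its leading genes unnamed. High-Col10a1 cells then numbered 135, 118 and 119 in place of 486, and low-Col10a1 cells 1615, 1599 and 1681 in place of 1938. The ratio was 1.05, 1.01 and 1.04.

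Eno1 stood lower with Col10a1. It had 196 against 389 CPM in MGJ, ratio 0.503 (interval 0.480 to 0.528), and 97.02 against 276 CPM in MGJ2, ratio 0.351 (interval 0.291 to 0.422). Across 6 ranges of Col10a1 its level was lower at every step in both libraries, in MGJ from 391 CPM below 300 CPM of Col10a1 through 378, 364, 285 and 220.0 to 159.8 CPM from 30000 CPM, and in MGJ2 from 294 through 228, 196, 151 and 114 to 83.5 CPM. The lactate carriers and Pfkfb3 were the other genes past the lower fold in both libraries. Slc16a3 had 39.6 against 72.4 CPM in MGJ, ratio 0.547 (interval 0.491 to 0.609), and 23.2 against 58.9 CPM in MGJ2, ratio 0.393 (interval 0.262 to 0.580). Slc16a1 had 10.99 against 23.00 CPM in MGJ, ratio 0.478 (interval 0.388 to 0.584), and 18.8 against 29.1 CPM in MGJ2, ratio 0.644 (interval 0.394 to 1.04). Pfkfb3 had 16.7 against 33.8 CPM in MGJ, ratio 0.495 (interval 0.418 to 0.582), and 23.8 against 37.04 CPM in MGJ2, ratio 0.642 (interval 0.417 to 0.979). The intervals of Slc16a1 in MGJ2 reached past 1, so that difference was within counting error. Pkm, at 0.719 and 0.632, Gapdh, at 0.817 and 0.793, and Pgk1, at 0.896 and 0.623, were also below 1 in both libraries.

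No gene stood past the upper fold in both libraries at high Col10a1. Slc2a1 lay above 1 in both, with 109 against 83.00 CPM in MGJ, ratio 1.31 (interval 1.22 to 1.40), and 134 against 68.6 CPM in MGJ2, ratio 1.95 (interval 1.55 to 2.47). Hk2 had ratios of 1.10 (interval 1.05 to 1.15) and 1.14 (interval 0.995 to 1.31), neither past the fold, and the interval of the latter included 1. The other glucose carrier, Slc2a3, stood at the low side in MGJ with 0.605 against 2.67 CPM in MGJ, ratio 0.227 (interval 0.0812 to 0.511), and had too few UMIs to be counted in MGJ2. In MGJ, 3 genes were past the upper fold. Adm had 37.6 against 4.402 CPM in MGJ, ratio 8.54 (interval 7.09 to 10.3), and 21.3 against 2.43 CPM in MGJ2, where it had too few UMIs to be counted. Aldoc had 61.6 against 16.5 CPM in MGJ, ratio 3.73 (interval 3.33 to 4.18), and was not counted in MGJ2. Bnip3 had 227 against 123 CPM in MGJ, ratio 1.85 (interval 1.76 to 1.94), but 0.909 (interval 0.729 to 1.13) in MGJ2. Ndrg1 had 19.2 against 85.9 CPM in MGJ, ratio 0.223 (interval 0.192 to 0.258), and 31.3 against 43.7 CPM in MGJ2, ratio 0.716 (interval 0.489 to 1.04). Hif1a itself had ratios of 0.937 and 1.197.

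Moderate- over low-Col10a1 cells, which share the low cells with the comparison above, gave 1.24 (interval 1.23 to 1.254) in MGJ and 0.923 (interval 0.886 to 0.961) in MGJ2. The Espn- and Cdsn-led sub-cluster held 54 of the 354 moderate and 109 of the 1938 low cells of MGJ. Without it the summed ratio of MGJ was 1.12, and the single-gene ratios given here include it. In MGJ, 5 of the 31 members with enough UMIs stood at or above the upper fold (background 7.58% of all genes counted) and 2 at or below the lower fold (background 16.7%), 7 in all against a background of 24.3%. In MGJ2, 3 of the 24 members with enough UMIs stood at or above the upper fold (background 12.5% of all genes counted) and 3 at or below the lower fold (background 12.9%), 6 in all against a background of 25.4%. The shares in MGJ2 were near the background. The 6 members past the fold in MGJ2 became 3 with the sub-clusters set aside kept, 3 at a minimum of 200 UMIs and 1 at a fold of 2, and the 7 in MGJ became 4 at that fold. The median ratio of the counted members was 1.24 in MGJ and 0.869 in MGJ2, beside 0.936 and 0.992 over all genes counted. Keeping the sub-clusters set aside or coarser clustering put the summed ratio of MGJ2 above 1, at 1.02 and 1.06. No gene passed the same fold in both. Bnip3 had 287 against 123 CPM in MGJ, ratio 2.33 (interval 2.22 to 2.45), and 146 against 108 CPM in MGJ2, ratio 1.35 (interval 1.05 to 1.73). Gapdh had 2313 against 1699 CPM in MGJ, ratio 1.36 (interval 1.34 to 1.38), and 835 against 924 CPM in MGJ2, ratio 0.904 (interval 0.821 to 0.994). Slc2a1 had 107 against 83.00 CPM in MGJ, ratio 1.29 (interval 1.196 to 1.39), and 142 against 68.6 CPM in MGJ2, ratio 2.07 (interval 1.57 to 2.73). Slc2a1 and Bnip3 thus lay above 1 in both libraries, together with Hk1, Pfkl, Tpi1 and Hif1a. Eno1, Pfkfb3 and Ndrg1 lay below 1 in both.

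**Figure D3:**
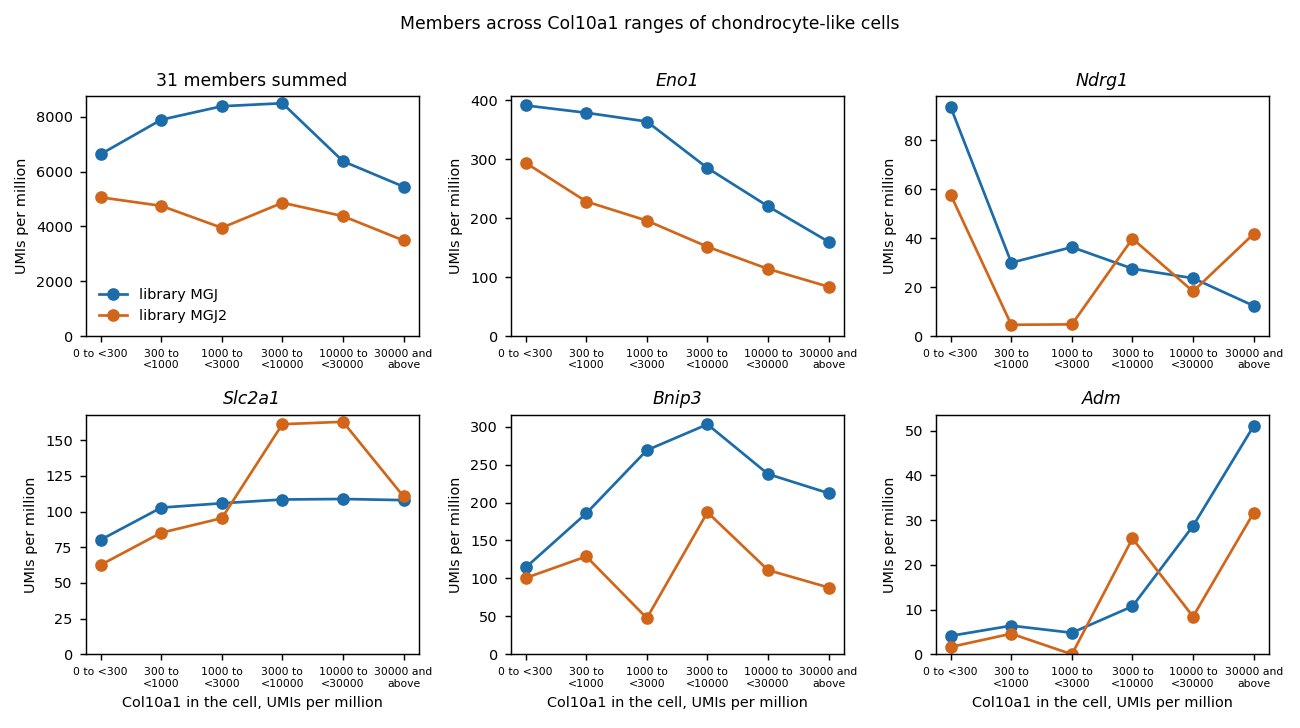
Levels in CPM of the 31 genes summed and of Eno1, Ndrg1, Slc2a1, Bnip3 and Adm in chondrocyte-like cells across 6 ranges of the cell's own Col10a1, one line per library, drawn without intervals. In MGJ Eno1 stood at 391 CPM in the lowest range and 159.8 CPM in the highest, while Adm stood at 4.13 and 51.00 CPM.

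Part of the spread among chondrocyte-like cells of MGJ lay in 1 small group of cells, singled out after its values were seen. When the chondrocyte-like cells were clustered again without the 31 genes, a sub-cluster of 186 cells led by Espn, Cdsn and H2-Ab1 had a summed level of 17432 CPM against 6199 CPM in the other 2592 chondrocyte-like cells, a ratio of 2.81 (interval 2.79 to 2.84). The other sub-clusters lay between 5202 and 7491 CPM. MGJ2 had 0 cells of this sub-cluster. Of its cells, 155 (83.3%) reached 12000 CPM, against 7.68% of the other chondrocyte-like cells. The description carries no test, since the sub-cluster was defined on these cells. Here, 21 of the 31 members with enough UMIs stood at or above the upper fold (background 10.6% of all genes counted) and 3 at or below the lower fold (background 20.6%), 24 in all against a background of 31.2%. The median ratio of the members was 2.38, beside 0.959 over all genes counted.

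Every step from Gpi1 to Ldha was represented among the genes on the high side. Gapdh had 6293 against 1434 CPM in MGJ, ratio 4.39 (interval 4.32 to 4.45). Ldha had 1620.0 against 609 CPM in MGJ, ratio 2.66 (interval 2.58 to 2.74). Pkm had 1601 against 619 CPM in MGJ, ratio 2.59 (interval 2.51 to 2.66). These enzymes lie at the middle and the end of the pathway. Ahead of them Gpi1, Pfkl, Pfkp, Aldoa, Aldoc and Tpi1 had ratios of 2.32, 2.46, 3.07, 2.31, 3.60 and 2.89, and Pgk1, Pgam1 and Eno1 had 2.14, 2.49 and 2.38. The lactate exporter Slc16a3 had 191 against 58.6 CPM in MGJ, ratio 3.26 (interval 2.99 to 3.55). Some genes of the hypoxia response had larger ratios. Ero1l had 377 against 53.9 CPM in MGJ, ratio 6.99 (interval 6.53 to 7.47). Egln1 had 393 against 70.1 CPM in MGJ, ratio 5.602 (interval 5.26 to 5.97), and Egln3 a ratio of 3.80. Bnip3 had 651 against 134 CPM in MGJ, ratio 4.88 (interval 4.65 to 5.12). In contrast, Hif1a RNA differed little, 471 against 493 CPM, and Slc2a1 had a ratio of 1.38. On the low side stood Hk2, with 130.4 against 222 CPM in MGJ, ratio 0.586 (interval 0.532 to 0.645), Pfkfb3 with 0.466 and Pfkfb4 with 0.358.

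These cells kept a cartilage profile. Col2a1 had 55284 against 53008 CPM and Sox9 a ratio of 0.987, while Ptprc, the pan-leukocyte marker, had 1.78 against 2.35 CPM, C1qa of macrophages 1.49 against 1.56 CPM and S100a8 of neutrophils 87.1 against 111 CPM. Mmp13, a protease of terminal hypertrophy, had a ratio of 0.197. Of hypoxia genes outside the 31, Car9, a carbonic anhydrase, had 66.9 against 7.88 CPM but is among the 10 leading genes that define the sub-cluster. Bnip3l, P4ha2 and P4ha1 had ratios of 2.84, 2.60 and 1.70, while Vegfa had a ratio of 0.794 and Epas1 of 0.319. Bsg, the chaperone of the lactate carriers, had 6658 against 1192 CPM. H2-Ab1, a class II antigen gene, had 884 against 46.5 CPM, whereas Cd74, its chaperone, had a ratio of 0.831. The median mitochondrial share was 1.16% against 3.76% in the other chondrocyte-like cells, with median depths of 17059.5 and 20301 UMIs, and 3 of 7 genes induced by tissue dissociation stood past the upper fold. Their part in the high level was not tested. By stage, 109, 54 and 23 of its cells were at low, moderate and high Col10a1, with 18481, 17141 and 13945 CPM. Without it the stages had 6209, 6934 and 5644 CPM, the same order as with it, but moderate over low was 1.12 in place of 1.24.

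**Figure D4:**
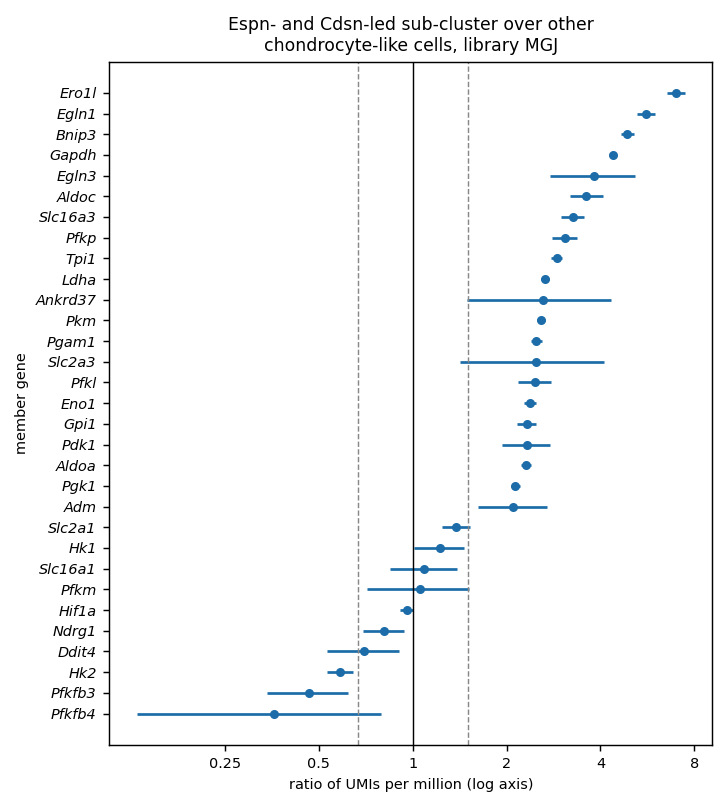
Ratio of each of the 31 genes in the Espn- and Cdsn-led sub-cluster over the other chondrocyte-like cells of MGJ on a log axis, with counting intervals and dashed lines at a fold of 1.5 in each direction. Ero1l (6.99), Egln1 (5.602) and Bnip3 (4.88) stood highest, and Pfkfb4 (0.358) lowest.

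Neutrophil-like cells were compared with macrophage- and monocyte-like cells, the other main phagocytes of the callus. Their summed level was 5165 against 8031 CPM in MGJ (ratio 0.643, interval 0.636 to 0.650) and 5092 against 3999.6 CPM in MGJ2 (ratio 1.27, interval 1.26 to 1.29). In MGJ, 4 of the 29 members with enough UMIs stood at or above the upper fold (background 13.9% of all genes counted) and 18 at or below the lower fold (background 64.9%), 22 in all against a background of 78.7%. In MGJ2, 7 of the 26 members with enough UMIs stood at or above the upper fold (background 21.7% of all genes counted) and 5 at or below the lower fold (background 47.7%), 12 in all against a background of 69.5%. Counted members had a median ratio of 0.504 in MGJ and 1.13 in MGJ2, and all genes counted had 0.454 and 0.704. Both the high-side and the low-side share of MGJ were near the background. Relative to the median of all genes the summed ratio of MGJ was above 1, at 1.42. The same scaling put 19 members of MGJ2 past the fold in place of 12. Different clusters made up the macrophage- and monocyte-like side in the libraries, as given above, and macrophage-like cells numbered 875 in MGJ and 28 in MGJ2. Slc2a3 had 151 against 1.61 CPM in MGJ, ratio 93.8 (interval 64.6 to 142), and 203 against 2.86 CPM in MGJ2, ratio 70.9 (interval 52.1 to 99.01). Pfkfb4 had 23.9 against 14.3 CPM in MGJ, ratio 1.67 (interval 1.38 to 2.01), and 52.5 against 9.08 CPM in MGJ2, ratio 5.78 (interval 4.77 to 7.05). These genes stood past the upper fold in both libraries. Past the lower fold in both were Hk2, at 0.197 and 0.337, Slc16a1, at 0.129 and 0.409, Pfkp, at 0.591 and 0.348, Ddit4, at 0.306 and 0.138, and Ndrg1, at 0.249 and 0.273. Relative to the median of all genes Pfkp stood at 1.30 in MGJ.

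Among neutrophil-like cells, the clusters led by Ltf and by Camp, genes of the secondary granules made by immature neutrophils, stood apart, a comparison chosen after the values were seen. They had 5605 CPM against 4932 CPM in the other neutrophil-like cells of MGJ (ratio 1.14, interval 1.12 to 1.16) and 6313 against 3828 CPM in MGJ2 (ratio 1.65, interval 1.62 to 1.68). The Ccl3- and Ccl4-led cluster of 2188 cells in MGJ, unnamed for low depth, had its best marker score for neutrophils. It was left out of this comparison and of the one above. In MGJ, 3 of the 26 members with enough UMIs stood at or above the upper fold (background 41.1% of all genes counted) and 13 at or below the lower fold (background 30.3%), 16 in all against a background of 71.4%. In MGJ2, 14 of the 24 members with enough UMIs stood at or above the upper fold (background 49.2% of all genes counted) and 6 at or below the lower fold (background 26.3%), 20 in all against a background of 75.5%. The median ratio of the counted members was 0.687 in MGJ and 2.11 in MGJ2, beside 1.18 and 1.47 over all genes counted. The high-side share of MGJ was under the background and its low-side share above it, and both shares of MGJ2 were nearer to it. Relative to the median of all genes the summed ratio of MGJ was 0.969. Ldha had 1049 against 298 CPM in MGJ, ratio 3.52 (interval 3.32 to 3.73), and 1059 against 163 CPM in MGJ2, ratio 6.48 (interval 6.04 to 6.97). Gpi1 had 421 against 89.2 CPM in MGJ, ratio 4.72 (interval 4.26 to 5.23), and 629 against 141 CPM in MGJ2, ratio 4.46 (interval 4.12 to 4.83). Ero1l had 214 against 72.3 CPM in MGJ, ratio 2.96 (interval 2.62 to 3.35), and 301 against 49.1 CPM in MGJ2, ratio 6.13 (interval 5.37 to 7.01). These 3 genes stood past the upper fold in both libraries. Another 6 genes stood past the lower fold in both, and neither count has a background over all genes. Pfkfb3 had 12.7 against 125 CPM in MGJ, ratio 0.101 (interval 0.0715 to 0.140), and 18.7 against 220.5 CPM in MGJ2, ratio 0.0848 (interval 0.0687 to 0.104). Slc2a1 had 22.2 against 99.3 CPM in MGJ, ratio 0.223 (interval 0.171 to 0.287), and 11.3 against 102 CPM in MGJ2, ratio 0.111 (interval 0.0837 to 0.144). Hif1a had 168 against 253 CPM in MGJ, ratio 0.664 (interval 0.600 to 0.735), and 153 against 547 CPM in MGJ2, ratio 0.279 (interval 0.258 to 0.302). Slc16a3, Ddit4 and Ndrg1 had ratios of 0.639, 0.504 and 0.216 in MGJ and 0.553, 0.314 and 0.291 in MGJ2. Of the genes past the fold in both libraries, Ldha, Gpi1 and Ero1l thus stood high and the carriers Slc2a1 and Slc16a3, Pfkfb3 and Hif1a low. Median depth moved with the clusters, 11380 and 6004 UMIs in the Camp- and Ltf-led clusters of MGJ against 1514 to 3839 in the others. Of the 7 genes induced by dissociation, 5 of 7 counted in MGJ and 3 of 5 in MGJ2 were past the lower fold, and Fos of the same list was past the upper fold in both. The part of either was not tested.

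**Figure D5:**
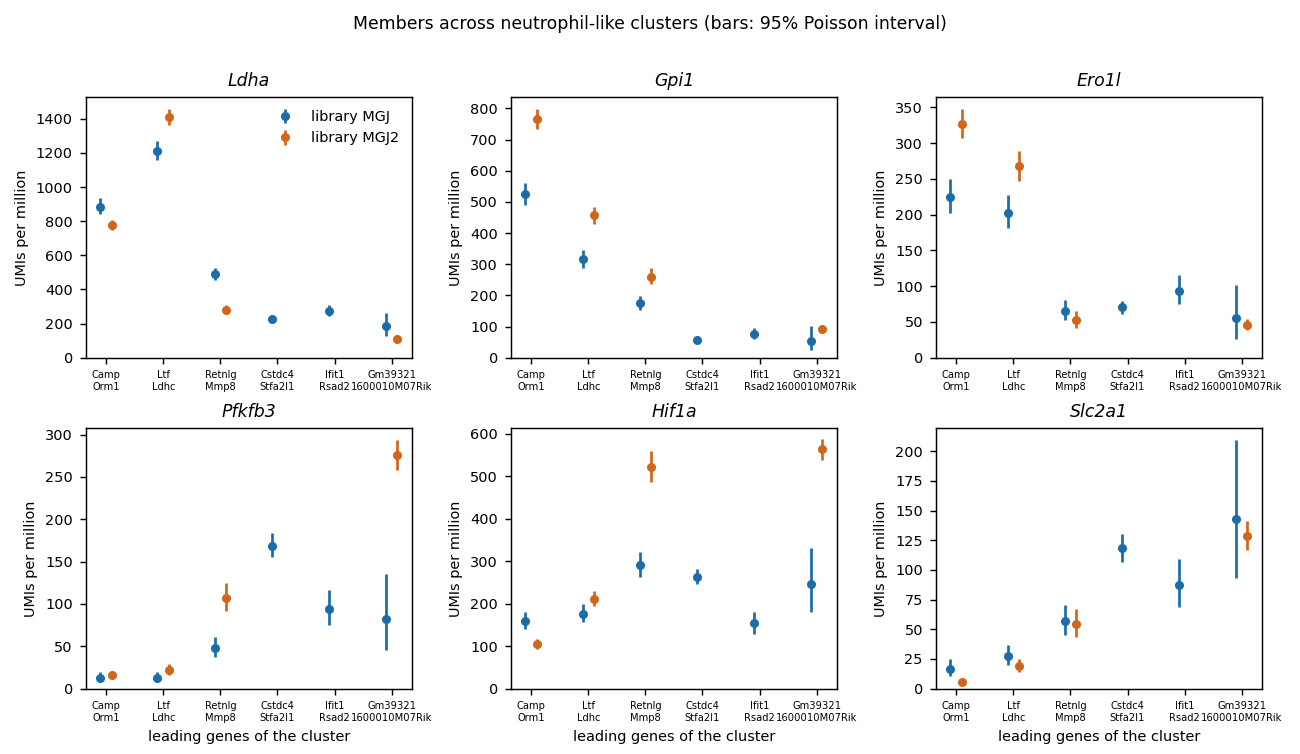
Levels in CPM of Ldha, Gpi1, Ero1l, Pfkfb3, Hif1a and Slc2a1 in the neutrophil-like clusters of both libraries, with Poisson intervals. In MGJ Ldha stood at 1213 CPM in the Ltf-led and 489 CPM in the Retnlg-led cluster, and Pfkfb3 at 13.1 and 48.3 CPM.

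Osteoclast-like cells, which resorb mineralised cartilage and bone and share precursors with macrophages, were compared with the same macrophage- and monocyte-like cells. The summed ratio was 0.885 (interval 0.8704 to 0.9002) in MGJ (95 osteoclast-like cells) and 1.55 (interval 1.52 to 1.58) in MGJ2 (56 cells). In MGJ, 1 of the 28 members with enough UMIs stood at or above the upper fold (background 35.0% of all genes counted) and 13 at or below the lower fold (background 25.1%), 14 in all against a background of 60.1%. In MGJ2, 14 of the 26 members with enough UMIs stood at or above the upper fold (background 36.4% of all genes counted) and 8 at or below the lower fold (background 31.1%), 22 in all against a background of 67.5%. Counted members had a median ratio of 0.778 in MGJ and 1.93 in MGJ2, and all genes counted had 1.13 and 1.07. The low-side share of MGJ2 was near the background. Over UMIs without matrix, mitochondrial and ribosomal genes the summed ratio of MGJ was 1.04. The regulators Hif1a and Pfkfb3 and the lactate exporter were low in both libraries. Hif1a had 63.6 against 455 CPM in MGJ, ratio 0.140 (interval 0.117 to 0.166), and 44.4 against 463 CPM in MGJ2, ratio 0.0957 (interval 0.0768 to 0.118). Pfkfb3 had 3.77 against 50.7 CPM in MGJ, ratio 0.0743 (interval 0.0320 to 0.147), and 1.99 against 101 CPM in MGJ2, ratio 0.0197 (interval 0.00537 to 0.0506). Slc16a3 had 30.1 against 198 CPM in MGJ, ratio 0.152 (interval 0.117 to 0.195), and 14.95 against 283 CPM in MGJ2, ratio 0.0528 (interval 0.0356 to 0.0755). Slc2a1, Ero1l, Ddit4 and Ndrg1 were also past the lower fold in both. On the enzyme side, Hk2 was the 1 gene past the upper fold in both, with 146 against 92.4 CPM in MGJ, ratio 1.58 (interval 1.39 to 1.78), and 177 against 75.6 CPM in MGJ2, ratio 2.35 (interval 2.08 to 2.65). Aldoa had 1023 against 828 CPM in MGJ, ratio 1.24 (interval 1.18 to 1.29), and 965 against 276 CPM in MGJ2, ratio 3.50 (interval 3.31 to 3.70). Ldha had 869 against 597 CPM in MGJ, ratio 1.46 (interval 1.38 to 1.53), and 712 against 301 CPM in MGJ2, ratio 2.36 (interval 2.22 to 2.51). Aldoa and Ldha were thus past the upper fold in MGJ2 and not in MGJ. Of 7 genes induced by tissue dissociation, 5 in MGJ and 7 in MGJ2 were past the lower fold in the same comparison, with summed levels of 514 against 664 CPM and 209 against 815 CPM, and their part in it was not tested.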

How the data were processed

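The 2 filtered matrices of UMI counts (10x Genomics 3′ kit, version 3) were deposited by the authors with no normalization, and their file headers name Cell Ranger 4.0.0. GRCm38, Cell Ranger and Seurat are named in the submitters' processing notes. The annotation release is not given in the sources used here. A 3′ UMI is not scaled to gene length, so levels compare molecules counted. Depth was 135304426 UMIs in MGJ and 61130834 in MGJ2. Barcodes needed at least 200 genes and at most 20% mitochondrial UMIs, which removed 371 and 464 in MGJ and 70 and 133 in MGJ2. Scrublet marked 650 doublets (4.83%) and 366 (4.69%), against 10.8 and 6.24% expected from loading, and these were removed.

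Both libraries were clustered together (scanpy 1.11.5, 2000 variable genes without the 31 genes and the related pathway lists, 30 components, 15 neighbours, Leiden resolution 1, leidenalg 0.10.2, igraph 0.11.9; 0.5 for sub-clusters) under Python 3.11.15 with numpy 2.4.6, scipy 1.17.1, pandas 2.3.3, scikit-learn 1.9.0 and matplotlib 3.10.9. A cluster took a class name from at least 3 detected markers, with a mean marker score of at least 1, and stayed unnamed where markers of another class led its 10 top genes or where its depth was low and none of its own markers led. A chondrocyte sub-cluster led by S100a8 and Retnlg (214 and 9 cells) and one led by osteoblast genes (48 and 28 cells) were set aside on this rule, so a planned comparison of osteoblast-like cells was not made. Classes under 50 cells in a library are not described on their own.

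UMIs were summed per class and library. Levels have exact Poisson intervals, ratios exact conditional binomial intervals and shares Clopper-Pearson intervals, all 95% and for counting error only. Because the labels place neither library in a group, no test between groups and no p-value could be given. A fold of 1.5 among genes with at least 50 UMIs was used for counts, and the background is the share of all such genes past the same fold. The interval code was tested on simulated data. The members, lists and comparisons were chosen with earlier results of these data known. Named genes were all 31 members, with a choice of the other pathway genes that passed the same fold in the same direction in both libraries. Alternatives numbered 17 and their effect is given with the closing observations. Promoter sequences are from RefSeq (GRCm38.p6).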

Additional observations from a re-analysis of the deposited data

Results flagged for a closer look

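Barcodes left out of every comparison also held UMIs of the 31 genes. Summed over the barcodes removed for few genes, a high mitochondrial share or a doublet call, the level was 5493 CPM (interval 5451 to 5536, 1485 barcodes) in MGJ and 3707 CPM (interval 3655 to 3759.9, 569 barcodes) in MGJ2. These barcodes entered no comparison, were set against a count of 0 only, and include 650 and 366 doublet calls. The kept cells of the same libraries had 6337 and 4089.5 CPM. The removed barcodes were not divided into classes.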

How the results depend on the processing

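Over the 17 alternatives, the summed ratios gave 123 values, of which 52 moved within their counting interval, 71 moved past it and 8 lay on the other side of 1. Among the 8 was a ratio past the fold, that of neutrophil-like over macrophage- and monocyte-like cells in MGJ. It was 0.643 in the main setting and 1.42 relative to the median ratio of all genes. Of 162 counts of members past the fold, 153 stayed within 1.5 times. Of 3467 values for single genes, 14 turned a ratio past the fold to the other side of 1. The alternative without the Espn- and Cdsn-led sub-cluster, and those for the sub-cluster and for the Ltf- and Camp-led clusters, were chosen after seeing the data. Below, chondrocyte-like cells are over all other cells, and neutrophil- and osteoclast-like cells over macrophage- and monocyte-like cells.

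At clustering resolution 0.5 the summed ratio in MGJ was 1.05 for high- over low-Col10a1, 1.30 for moderate- over low-Col10a1 and 1.201 for chondrocyte-like cells and in MGJ2 1.06 for moderate- over low-Col10a1, 1.37 for chondrocyte-like cells and 1.21 for neutrophil-like cells. Single genes past the fold that then turned in MGJ2 had Adm 0.300 for chondrocyte-like cells. With at most 10% mitochondrial UMIs the summed ratio in MGJ was 1.01 for high- over low-Col10a1, 1.31 for moderate- over low-Col10a1, 1.19 for chondrocyte-like cells, 0.636 for neutrophil-like cells and 0.920 for osteoclast-like cells and in MGJ2 1.37 for chondrocyte-like cells. Turned ratios of single genes there in MGJ2 were Adm 0.666 for chondrocyte-like cells. With at least 500 genes per barcode the summed ratio in MGJ was 1.04 for high- over low-Col10a1, 1.29 for moderate- over low-Col10a1 and 1.23 for chondrocyte-like cells and in MGJ2 1.43 for chondrocyte-like cells and 1.21 for neutrophil-like cells. In MGJ2 the genes that turned there were Adm 0.653 for chondrocyte-like cells. With the sub-clusters set aside kept the summed ratio in MGJ was 0.898 for high- over low-Col10a1 and in MGJ2 0.864 for high- over low-Col10a1, 1.02 for moderate- over low-Col10a1 and 1.06 for chondrocyte-like cells. The number of members past the fold then was 5 for high- over low-Col10a1 and 3 for moderate- over low-Col10a1 in library MGJ2. With Col10a1 stages cut at 500 and 5000 CPM the summed ratio in MGJ was 0.9704 for high- over low-Col10a1 and 1.21 for moderate- over low-Col10a1 and in MGJ2 0.810 for high- over low-Col10a1 and 0.844 for moderate- over low-Col10a1. Single genes past the fold that then turned in MGJ2 had Hk2 0.973 and Pfkp 1.37 for moderate- over low-Col10a1. With Col10a1 stages cut at 2000 and 20000 CPM the summed ratio in MGJ was 0.813 for high- over low-Col10a1 and 1.13 for moderate- over low-Col10a1. Turned ratios of single genes there in MGJ2 were Ddit4 0.363 for moderate- over low-Col10a1. With every cell weighted equally the summed ratio in MGJ was 0.897 for high- over low-Col10a1, 1.26 for chondrocyte-like cells, 0.912 for osteoclast-like cells, 2.90 for the Espn- and Cdsn-led sub-cluster and 1.16 for the Ltf- and Camp-led clusters and in MGJ2 0.819 for high- over low-Col10a1, 1.202 for chondrocyte-like cells, 1.08 for neutrophil-like cells, 1.501 for osteoclast-like cells and 1.80 for the Ltf- and Camp-led clusters. In MGJ2 the genes that turned there were Ero1l 0.940 for neutrophil-like cells. In CPM of UMIs without matrix, mitochondrial and ribosomal genes the summed ratio in MGJ was 0.854 for high- over low-Col10a1, 1.44 for chondrocyte-like cells, 0.568 for neutrophil-like cells, 1.04 for osteoclast-like cells, 2.74 for the Espn- and Cdsn-led sub-cluster and 1.19 for the Ltf- and Camp-led clusters and in MGJ2 0.742 for high- over low-Col10a1, 1.30 for chondrocyte-like cells, 1.09 for neutrophil-like cells, 1.84 for osteoclast-like cells and 1.74 for the Ltf- and Camp-led clusters. Relative to the median ratio of all genes counted the summed ratio in MGJ was 0.937 for high- over low-Col10a1, 1.33 for moderate- over low-Col10a1, 1.30 for chondrocyte-like cells, 1.42 for neutrophil-like cells, 0.782 for osteoclast-like cells, 2.93 for the Espn- and Cdsn-led sub-cluster and 0.969 for the Ltf- and Camp-led clusters and in MGJ2 0.811 for high- over low-Col10a1, 1.40 for chondrocyte-like cells, 1.82 for neutrophil-like cells, 1.45 for osteoclast-like cells and 1.13 for the Ltf- and Camp-led clusters. The number of members past the fold then was 19 for neutrophil-like cells in library MGJ2. Single genes past the fold that then turned in MGJ had Slc2a1 1.253, Pfkl 1.11, Pfkp 1.30, Aldoa 1.08, Eno1 1.09, Hif1a 1.08 and Egln3 1.17 for neutrophil-like cells. Without the Espn- and Cdsn-led sub-cluster the summed ratio in MGJ was 0.909 for high- over low-Col10a1, 1.12 for moderate- over low-Col10a1 and 1.05 for chondrocyte-like cells. With a fold of 2 the number of members past the fold was 4 for moderate- over low-Col10a1 and 10 for chondrocyte-like cells in library MGJ. The number of members past the fold then was 3 for high- over low-Col10a1 and 1 for moderate- over low-Col10a1 in library MGJ2. With cartilage RNA subtracted in proportion to Col2a1 the summed ratio in MGJ was 1.19 for chondrocyte-like cells. With each library clustered on its own the summed ratio in MGJ was 0.625 for neutrophil-like cells and 0.855 for osteoclast-like cells and in MGJ2 0.753 for high- over low-Col10a1, 1.15 for chondrocyte-like cells and 1.21 for neutrophil-like cells. With at least 200 UMIs per gene the number of members past the fold was 5 for high- over low-Col10a1 and 3 for moderate- over low-Col10a1 in library MGJ2. At clustering resolution 2 the summed ratio in MGJ2 was 1.21 for neutrophil-like cells and 1.48 for osteoclast-like cells.

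High-Col10a1 cells of MGJ2 were under 10 at resolution 0.5, at the 10% mitochondrial limit and at 500 genes, so no ratio was formed there, nor one for moderate cells at the mitochondrial limit or at 500 genes. Neutrophil-like cells of MGJ numbered 2798 to 5013 over the alternatives, as the Ccl3- and Ccl4-led cluster took or lost the name. No paired analysis was possible because the labels put neither library in a group. The stages of MGJ2 rested on 64, 25 and 50 cells. With 1 library for each value, differences between mice or calluses cannot be told apart from those between cells, and in a class fewer cells of a type and less RNA per cell cannot be told apart either.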

Other observations

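Genes of the same pathways outside the 31 were read from 5 lists. Chondrocyte-like over other cells, 8 of 17 further hypoxia genes stood past the upper fold and 5 past the lower in MGJ, and 8 of 16 and 5 in MGJ2. Of all genes counted in this comparison, 22.9 and 34.8% stood past these folds in MGJ and 26.3 and 43.2% in MGJ2, to which the list counts here are to be compared. P4ha2, a collagen prolyl hydroxylase, had 340.5 against 94.5 CPM and 199 against 3.02 CPM. Car12, a carbonic anhydrase, had 81.3 against 10.9 CPM and 56.1 against 0.847 CPM. Vegfa, which draws vessels into cartilage, had 341 against 164 CPM and 653 against 219 CPM. P4ha1, Fam162a, Higd1a and Ak4 also stood past the upper fold in both libraries, and Vhl, Egln2, Kdm3a and Mxi1 past the lower. Of the further glycolytic isozymes, 1 of 7 counted stood past the upper and 2 past the lower fold in MGJ, and 2 and 3 of 5 in MGJ2. Of the further sugar and lactate carriers, 2 of 6 counted stood past the upper and 3 past the lower fold in MGJ, and 3 and 3 of 6 in MGJ2. Of the genes for entry of pyruvate into mitochondria, 2 of 10 counted stood past the upper and 2 past the lower fold in MGJ, and 2 and 3 of 10 in MGJ2. Of the genes of glycogen and the pentose phosphate pathway, 2 of 10 counted stood past the upper and 3 past the lower fold in MGJ, and 0 and 7 of 9 in MGJ2. Among the genes on the low side in both libraries was Hk3, the hexokinase of myeloid cells, at ratios of 0.0203 and 0.0205. The pentose phosphate enzymes G6pdx, at 0.245 and 0.177, Pgd, at 0.299 and 0.322, and Taldo1, at 0.400 and 0.246, were there as well. Past the upper fold in both libraries were Ldhb, Slc2a10, Bsg, Pdk2 and Pdk4 of these lists.

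With Col10a1, Epas1, which encodes the related factor Hif2a, had 41.2 against 3.44 CPM in high- against low-Col10a1 cells of MGJ and 135 against 6.07 CPM in MGJ2. Cited2, a feedback inhibitor of the hypoxia factors, had 259.9 against 49.4 CPM and 325 against 43.7 CPM. Pdk4, a kinase that closes pyruvate dehydrogenase, had 13.2 against 1.31 CPM and 38.2 against 5.47 CPM. Bnip3l and Mxi1 also stood past the upper fold in both libraries, and Pgls of the pentose phosphate pathway past the lower. Atf3, of the genes induced by dissociation, was past the upper fold in both, and its part was not tested. These genes were picked by their fold and are not read as a trait of their lists. Epas1 is among the leading genes of the Col10a1-led sub-cluster of these cells, so its direction is partly set by the clustering.

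In the Ltf- and Camp-led neutrophil-like clusters, 6 of 9 and 7 of 9 counted genes of glycogen and the pentose phosphate pathway stood past the upper fold, beside 41.1 and 49.2% of all genes counted. Tkt, transketolase, had 771 against 85.7 CPM and 989 against 106 CPM. G6pdx had 78.8 against 24.96 CPM and 91.2 against 20.7 CPM. In osteoclast-like cells, 5 of 8 and 5 of 7 counted genes for entry of pyruvate into mitochondria stood past the upper fold over macrophage- and monocyte-like cells, beside 35.0 and 36.4% of all genes counted, among them Dlat, a subunit of pyruvate dehydrogenase, with 71.6 against 15.2 CPM and 75.8 against 6.64 CPM.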
